A study of Mus musculus with 16 samples.

Results

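The two-pore potassium channel genes described here are 9 members of the mouse Kcnk family, chosen by symbol out of 52636 genes in the count tables: Kcnk1, Kcnk2, Kcnk3, Kcnk4, Kcnk10, Kcnk12, Kcnk13, Kcnk16 and Kcnk18. The choice was made with their levels across the 4 groups in view, so those levels and the differences between them are given as a description, without p-values. Each symbol matched 1 Ensembl gene, and all 9 passed the filter on low counts. The genes were measured by RNA sequencing of dorsal root ganglia (DRGs), the clusters of sensory neuron cell bodies and their glia beside the spinal cord, in 16 male C57Bl6/J mice aged 3 to 4 months, with 1 mouse per library and 4 mice per group.

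The Sham-Saline and SNI-Saline groups received saline and the Sham-DMI and SNI-DMI groups received 15 mg/kg desipramine (DMI), a tricyclic antidepressant that blocks noradrenaline reuptake, by intraperitoneal injection 2 times per day for 3 weeks. In the SNI groups the common peroneal and sural branches of the left sciatic nerve had been ligated and cut (spared nerve injury), and the tibial branch was left, while the Sham groups had a sham operation. The labels name no genotype beyond the strain. Treatment began 4 weeks after surgery by the series design and by the study's abstract and results, while its methods give 4 months. Ganglia L3 to L6 were taken, the side is not given, and neurons with spared axons are part of the SNI samples. The tissue is labelled spinal cord, but the cell type is labelled DRG. The summed level of 9 sensory neuron markers was 8500 to 10430 CPM (counts scaled to the library's total), against 14.6 to 39.9 CPM for 10 markers of spinal cord neurons and glia. The titles end in a library number, whose meaning is not given. It runs from 17 to 20 in Sham-DMI, 21 to 24 in SNI-DMI, 33 to 36 in SNI-Saline and 37 to 40 in Sham-Saline, so whatever it stands for cannot be told apart from the groups. Gene counts per library ran from 41194238 to 73920332. Skeletal muscle markers (4 genes) summed to 251 CPM in SNI-DMI 2, 70.2 CPM in SNI-Saline 2 and 44.6 CPM in Sham-Saline 1.

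Two-pore channels are dimers that conduct potassium at rest. They carry the background current that holds the membrane potential of a neuron away from its firing threshold, and they are gated by stretch, heat, pH, lipids and receptor signalling rather than by voltage. In sensory neurons they are known as brakes on excitability. TREK-1 (Kcnk2), TREK-2 (Kcnk10) and TRAAK (Kcnk4) respond to stretch, temperature and fatty acids, TASK-1 (Kcnk3) closes in acid, and TRESK (Kcnk18) is activated by calcineurin. TWIK-1 (Kcnk1) gives weak currents, THIK-1 (Kcnk13) and THIK-2 (Kcnk12) are halothane-inhibited relatives, and TALK-1 (Kcnk16) opens in alkaline medium and is best known from pancreatic islets.

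Promoter sequences are shown for Kcnk16 and Kcnk18, which differed between SNI-Saline and Sham-Saline in opposite directions, and for the Kcnk2 start site that held the only motif match among these genes. RefSeq promoters (GRCm38.p6, 250 bases before and 50 bases from the start site) were found for 8 of the 9 genes, 12 promoters in all, with no entry for Kcnk3. The Kcnk16 promoter lies on the minus strand at chr14:20269220-20269519, that of Kcnk18 on the plus strand at chr19:59219398-59219697, and the second Kcnk2 promoter on the minus strand at chr1:189344143-189344442. That of Kcnk18 lies inside the gene as placed by GENCODE (chr19:59219214-59237374), so RefSeq and GENCODE put its start site at different positions. Capitals mark the AP-1 motif.
Kcnk16: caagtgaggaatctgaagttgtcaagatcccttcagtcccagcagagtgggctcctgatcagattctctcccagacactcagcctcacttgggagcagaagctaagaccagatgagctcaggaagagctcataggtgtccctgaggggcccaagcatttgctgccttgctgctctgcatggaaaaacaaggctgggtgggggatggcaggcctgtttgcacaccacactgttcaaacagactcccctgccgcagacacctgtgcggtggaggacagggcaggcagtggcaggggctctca
Kcnk18: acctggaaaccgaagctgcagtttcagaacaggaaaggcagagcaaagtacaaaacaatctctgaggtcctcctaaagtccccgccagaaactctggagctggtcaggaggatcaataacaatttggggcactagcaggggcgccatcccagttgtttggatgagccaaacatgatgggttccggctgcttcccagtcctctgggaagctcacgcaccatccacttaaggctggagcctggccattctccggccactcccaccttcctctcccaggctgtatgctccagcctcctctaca
Kcnk2, second start site: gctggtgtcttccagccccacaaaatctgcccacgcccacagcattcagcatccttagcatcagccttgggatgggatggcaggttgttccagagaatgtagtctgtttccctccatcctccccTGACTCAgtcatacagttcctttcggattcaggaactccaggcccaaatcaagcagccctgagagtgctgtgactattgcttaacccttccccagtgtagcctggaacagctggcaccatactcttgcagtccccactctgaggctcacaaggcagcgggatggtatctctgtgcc
The letters of the AP-1 motif, TGANTCA, were found on either strand in 7.81% of 32851 mouse promoters of 300 bases. Among the 12 promoters they occurred 1 time, at position -126 relative to the second start site of Kcnk2. The CRE motif, TGACGTCA, occurred in 1.79% of all promoters and in none of these 12. The motifs do not overlap each other in any of the 12.

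Levels were compared between genes as CPM per kilobase of merged exons. In Sham-Saline, Kcnk1 was the most abundant member at 30.9 ± 2.06 CPM per kilobase (SD, n = 4), which was 45.2% of the sum over the 14 mouse Kcnk genes. Kcnk3 (8.03 ± 2.57) and Kcnk12 (7.79 ± 1.16) followed, and their ranges overlapped. Kcnk13 (5.25 ± 0.605), Kcnk2 (4.73 ± 1.36) and Kcnk18 (4.08 ± 0.547) formed the next group, each overlapping with its neighbour. Kcnk4 (2.42 ± 0.15) and Kcnk10 (1.80 ± 0.0342) did not overlap. Kcnk16 was lowest among the 9 at 0.149 ± 0.0289 CPM per kilobase. With the length of the longest transcript in place of merged exons, the level per kilobase in Sham-Saline became 6.54 for Kcnk2, 4.26 for Kcnk4 and 2.12 for Kcnk10.

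The order of the 9 was the same in Sham-DMI, and in the SNI groups only neighbours changed places. In SNI-Saline, Kcnk12 (7.17 CPM per kilobase) stood above Kcnk3 (6.24), with overlapping ranges. In SNI-DMI, Kcnk3 (9.84) was above Kcnk12 (6.94) without overlap and made up 14.5% of the family sum, against 9.49% in SNI-Saline. Kcnk2 (5.14) stood above Kcnk13 (4.89) there and Kcnk4 (2.92) above Kcnk18 (2.71), with overlapping ranges. The sum over the 14 genes itself was 68.3 ± 3.26 CPM per kilobase in Sham-Saline and 67.7 ± 2.60 in Sham-DMI. It was 65.8 ± 0.885 in SNI-Saline and 68.0 ± 1.69 in SNI-DMI, and the 9 genes held 95.2% to 96.1% of it. Of the other 5 family genes, Kcnk5 was at 2.72 CPM per kilobase in Sham-Saline, Kcnk6 at 0.265, Kcnk7 at 0.0836 and Kcnk9 at 0.0744. Kcnk15 had 11 reads over all libraries and did not pass the filter.

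**Figure D1:**
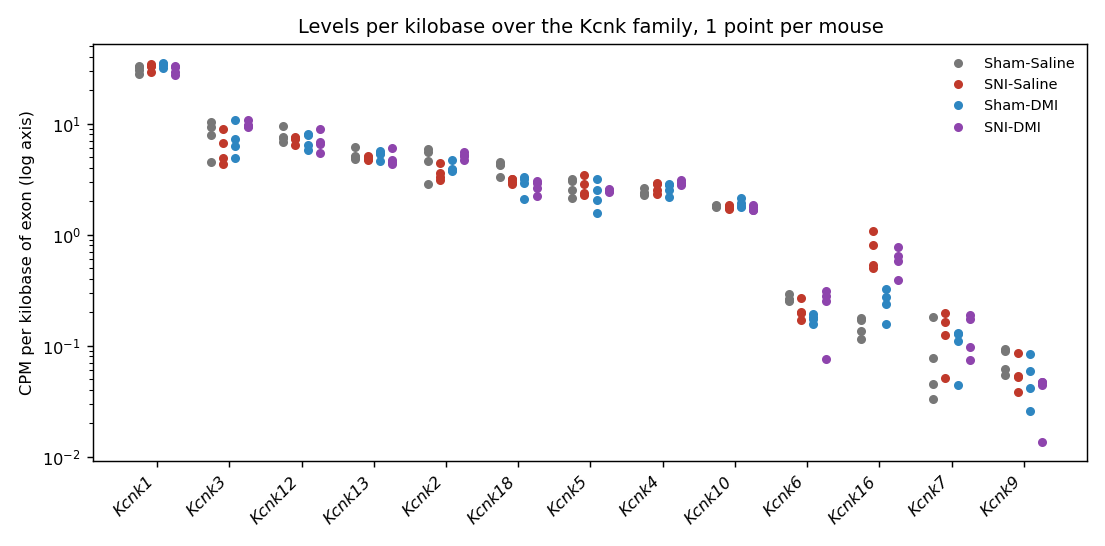
Level of 13 Kcnk genes in CPM per kilobase of merged exons (log axis), 1 point per mouse, coloured by group and ordered by the Sham-Saline mean; Kcnk15 is left out because 10 libraries had no read. Kcnk1 lies far above all others, and Kcnk16 sits higher in both SNI groups.

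Kcnk16 (ENSMUSG00000023387, chr14:20261376-20269199, minus strand, GRCm38, no overlapping gene) showed the largest difference of the 9. Its level was 0.400, 0.325, 0.421 and 0.272 CPM in Sham-Saline and 1.18, 1.27, 1.93 and 2.58 CPM in SNI-Saline. In Sham-DMI it was 0.564, 0.769, 0.375 and 0.646 CPM, and in SNI-DMI 1.36, 1.52, 0.924 and 1.82 CPM. Every SNI-Saline mouse was above every Sham-Saline mouse, which held for 7.67% of all genes tested. Every SNI-DMI mouse was above every Sham-DMI mouse, which held for 2.89% of them. The Kcnk16 values rest on 15 to 169 reads per library, so counting error adds to the spread between mice. In a bulk sample, fewer cells of a type and less RNA per cell cannot be told apart.

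The log2 fold change of Kcnk16 was 2.30 ± 0.29 (SE) for SNI-Saline versus Sham-Saline, from 0.354 ± 0.0688 to 1.74 ± 0.654 CPM (SD, n = 4). SNI-DMI versus Sham-DMI, which shares no library with it, gave 1.23 ± 0.28. The DMI difference was 0.76 ± 0.31 under sham, where the groups overlapped, and -0.31 ± 0.26 under SNI. The difference between both DMI differences was -1.07 ± 0.40. Over 16 fits that each left out 1 library, the first of these values stayed between 2.04 and 2.46.

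The genes most like Kcnk16 across the 16 libraries were Ecel1, Atf3 and Hrk, each at r = 0.95 on log2 CPM, and 0.64, 0.61 and 0.68 within groups. The points share 4 groups, so this is a description. Atf3, a transcription factor induced by axon damage, and Ecel1, a neuronal endopeptidase, belong to the injured neuron marker list (5 genes). That list summed to 40.9 to 53.6 CPM in Sham-Saline and 54.6 to 82.5 CPM in Sham-DMI. It reached 156 to 174 CPM in SNI-Saline and 143 to 254 CPM in SNI-DMI, with none of its genes at 0. Its log2 sum had r = 0.92 with Kcnk16 over the 16 libraries. Within SNI-Saline the sum was 157, 174, 156 and 159 CPM in replicates 1 to 4 while Kcnk16 varied from 1.18 to 2.58 CPM. Within SNI-DMI the sum was 204, 155, 143 and 254 CPM, and the mice with the lowest and the highest sum were also those with the lowest and the highest Kcnk16. Markers of nonpeptidergic nociceptors had r = -0.65 with Kcnk16, and their part in its values was not tested.

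Kcnk18 (ENSMUSG00000040901, chr19:59219214-59237374, plus strand, no overlapping gene) was highest in Sham-Saline, at 14.6, 11.4, 14.9 and 15.7 CPM. The SNI-Saline mice had 10.9, 10.3, 11.04 and 9.96 CPM. The Sham-DMI mice had 10.9, 11.4, 10.2 and 7.32 CPM, and the SNI-DMI mice 10.6, 10.2, 7.72 and 9.04 CPM. The SNI-Saline mice were all below the Sham-Saline mice, whereas Sham-DMI and Sham-Saline overlapped by 1 mouse on each side. The log2 fold change was -0.42 ± 0.13 for SNI-Saline versus Sham-Saline and -0.50 ± 0.13 for Sham-DMI versus Sham-Saline; both use the same Sham-Saline mice. It was -0.17 ± 0.13 for SNI-DMI versus SNI-Saline and -0.09 ± 0.13 for SNI-DMI versus Sham-DMI.

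As a description over 16 libraries that share 4 groups, Kcnk18 had r = 0.68 with the summed markers of nonpeptidergic nociceptors (Mrgprd, P2rx3, Cd55 and Gfra2). That sum was 905 to 1178 CPM in Sham-Saline and 856 to 976 CPM in Sham-DMI. In SNI-Saline it was 806 to 912 CPM, and in SNI-DMI 738 to 891 CPM. Satellite glia markers (6 genes) had r = -0.68 with Kcnk18, with sums of 2326 to 2571 CPM in Sham-Saline and 2672 to 3070 CPM in SNI-Saline. They were at 2492 to 3096 CPM in Sham-DMI and 2821 to 3290 CPM in SNI-DMI. The part of these cells in the Kcnk18 values was not tested. The genes most like it were Stk35 (r = 0.93), Ncoa7 (0.93) and Sgip1 (0.92).

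**Figure D2:**
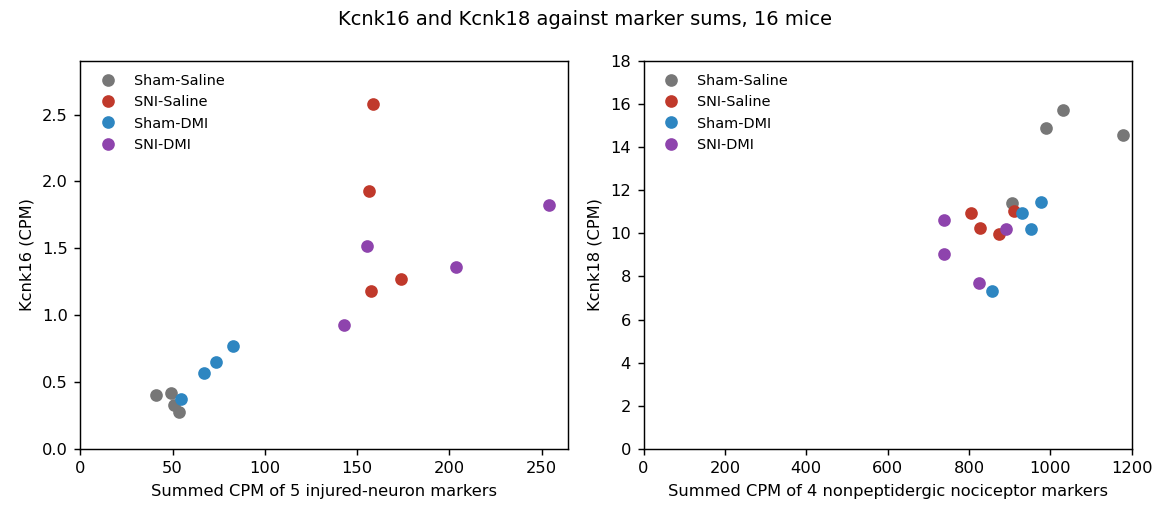
Left, Kcnk16 against the summed injured neuron markers, and right, Kcnk18 against the summed nonpeptidergic nociceptor markers, both axes in CPM and 1 point per mouse, coloured by group. The SNI mice of both treatments lie above 0.9 CPM of Kcnk16, and 3 of the 4 Sham-Saline mice lie apart at the top for Kcnk18.

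Kcnk2 and Kcnk3 varied widely between mice of the same group for genes of their level, and did so together. Kcnk3 (ENSMUSG00000049265, chr5:30588170-30625271, plus strand) was at 17.9, 31.4, 37.02 and 41.4 CPM in Sham-Saline and 26.5, 35.8, 17.3 and 19.7 CPM in SNI-Saline. It was at 42.8, 28.9, 24.9 and 19.7 CPM in Sham-DMI and 37.2, 43.1, 38.5 and 37.7 CPM in SNI-DMI. Every SNI-DMI mouse was above every SNI-Saline mouse, while the other pairs of groups overlapped. Of its exon bases 229 are shared with Gm9899 on the opposite strand, and whether strand was used in counting is not stated.

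The Kcnk3 log2 fold change was 0.66 ± 0.25 for SNI-DMI versus SNI-Saline, -0.37 ± 0.25 for SNI-Saline versus Sham-Saline, -0.14 ± 0.25 for Sham-DMI versus Sham-Saline and 0.43 ± 0.25 for SNI-DMI versus Sham-DMI. The first of these values was 0.51 to 0.90 over fits without 1 library, the highest without SNI-Saline 2. The Sham-DMI value turned to 0.03 without Sham-DMI 4 and to 0.02 without Sham-Saline 4.

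Kcnk2 (ENSMUSG00000037624, chr1:189207930-189402273, minus strand) was at 14.2, 22.6, 27.3 and 29.3 CPM in Sham-Saline and 17.9, 21.96, 15.2 and 16.2 CPM in SNI-Saline. It was at 23.1, 18.9, 18.4 and 19.1 CPM in Sham-DMI and 25.7, 27.3, 23.3 and 25.2 CPM in SNI-DMI. The SNI-DMI mice were above all SNI-Saline mice and above all Sham-DMI mice. Its log2 fold change was 0.51 ± 0.16 for SNI-DMI versus SNI-Saline, 0.35 ± 0.16 for SNI-DMI versus Sham-DMI, -0.39 ± 0.16 for SNI-Saline versus Sham-Saline and -0.23 ± 0.16 for Sham-DMI versus Sham-Saline. Over the alternative settings these ran, in the same order, from 0.30 to 0.52, 0.07 to 0.36, -0.41 to -0.24 and -0.25 to -0.01. In exons 604 bases are shared with the antisense A430027H14Rik.

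Within groups the SD of log2 CPM was 0.43 for Kcnk3 and 0.28 for Kcnk2. Among the 500 genes closest in level, 99.2% had a smaller SD than Kcnk3 and 97.0% a smaller SD than Kcnk2, against 9.40% for Kcnk10. Kcnk2 and Kcnk3 had r = 0.92 over the 16 libraries and 0.89 within groups. Kcnk3 was also like Chrnb4, a nicotinic receptor subunit, Crhr2, a receptor for urocortins, and Spsb4 (r = 0.94 each). For Kcnk2, Kcnk3 was the most alike of 13722 genes, before Chrnb4 (0.90) and Slc29a4, a monoamine transporter (0.89). Markers of peptidergic nociceptors (4 genes) had r = 0.70 with Kcnk3, with sums of 1481 to 1857 CPM in SNI-Saline and 1718 to 1867 CPM in SNI-DMI, and their part in the Kcnk3 values was not tested. Markers of large myelinated neurons (5 genes) had r = -0.66 with Kcnk2, with sums of 2964 to 3285 CPM in SNI-Saline and 2553 to 3252 CPM in SNI-DMI, and their part in the Kcnk2 values was not tested either.

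Posterior Hox genes, which mark the position of a ganglion along the body axis, differed between mice too; they were looked at after the Kcnk3 values had been seen. The sum of Hoxa10, Hoxc10, Hoxd10, Hoxa11, Hoxc11 and Hoxd11 was 61.0, 87.5, 92.5 and 107.6 CPM in Sham-Saline and 88.2, 96.3, 56.8 and 52.2 CPM in SNI-Saline. It was 91.2, 65.3, 73.6 and 43.2 CPM in Sham-DMI and 86.7, 126.9, 81.8 and 95.9 CPM in SNI-DMI. The mice with low sums in the first 3 groups were also those with low Kcnk3, and r over 16 libraries was 0.88 for Kcnk3, 0.78 for Kcnk2 and -0.77 for Kcnk1. It was -0.61 for Kcnk10 (-0.55 within groups) and 0.48 for Kcnk12 (0.60 within groups). For Kcnk18 it was 0.30 (0.48 within groups) and for Kcnk16 -0.11 (-0.45 within groups). For Kcnk4 it was 0.26 (0.16 within groups) and for Kcnk13 -0.11 (-0.02 within groups). With the Hox sum as a covariate, the SNI-DMI versus SNI-Saline difference was 0.28 ± 0.13 for Kcnk3 and 0.30 ± 0.13 for Kcnk2. For SNI-Saline versus Sham-Saline the covariate gave -0.10 ± 0.13 for Kcnk3, 2.12 ± 0.28 for Kcnk16 and -0.36 ± 0.13 for Kcnk18. The Hox sum ran from 52.2 to 96.3 CPM in SNI-Saline and from 81.8 to 126.9 CPM in SNI-DMI, so it was not independent of group. The part of ganglion position in the Kcnk values was not tested.

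**Figure D3:**
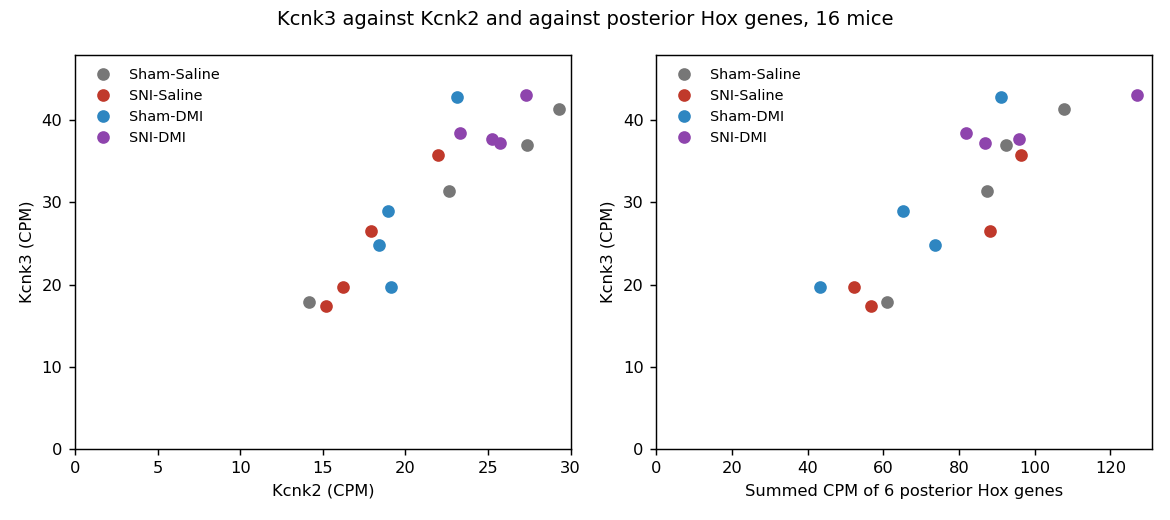
Kcnk3 against Kcnk2 (left) and against the summed level of 6 posterior Hox genes (right), all in CPM, 1 point per mouse, coloured by group. Kcnk3 is higher in mice where Kcnk2 (r = 0.92) or the Hox sum (r = 0.88) is higher, and the SNI-DMI mice cluster above 37 CPM of Kcnk3.

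Kcnk1 (ENSMUSG00000033998, chr8:125995170-126030685) stayed within 63.1 to 73.2 CPM in Sham-Saline and 71.5 to 78.6 CPM in Sham-DMI. It was at 65.2 to 77.2 CPM in SNI-Saline and 60.9 to 73.6 CPM in SNI-DMI. Its log2 fold changes lay between -0.15 and 0.13 over the 4 pairwise comparisons, each with an SE of 0.07. Relt (r = 0.90), D7Ertd443e (0.89) and Vstm2b (0.87) were most like it, and the markers of large myelinated neurons had r = 0.83 with it.

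The other stretch-gated members differed little. Kcnk10 (ENSMUSG00000033854, chr12:98429437-98578310) stayed within 14.5 to 18.6 CPM, with the highest value in Sham-DMI 2, and its log2 fold changes lay between -0.14 and 0.09 (SE 0.07). Kcnk4 (ENSMUSG00000024957, chr19:6923966-6934515) was at 10.2, 11.8, 10.7 and 10.6 CPM in Sham-Saline and 13.7, 12.4, 13.1 and 12.9 CPM in SNI-DMI, with 10.4 to 12.9 CPM in SNI-Saline and 9.68 to 12.6 CPM in Sham-DMI. Its log2 fold changes were 0.09 to 0.18 (SE 0.09), and each pair of groups compared overlapped. Injured neuron markers had r = 0.60 with Kcnk4. Satellite glia markers had r = 0.78 with it, and those of nonpeptidergic nociceptors and of endothelium and pericytes (7 genes) each had r = -0.68. The endothelium and pericyte sums were 298 to 341 CPM in Sham-Saline and 230 to 289 CPM in SNI-DMI. The part of these cells in the Kcnk4 values was not tested. Macrophage markers had r = -0.60 with Kcnk10, and their part was not tested either. Tmem203 (0.85), Trib1 (0.84) and Fstl3 (0.83) were most like Kcnk4, and Phtf1 (0.79) and Zfp280b (0.79) were among the 3 genes most like Kcnk10. The Kcnk4 level is uncertain, since 587 exon bases are shared with Catsperz on the same strand.

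The THIK genes overlapped between all groups. Kcnk12 (ENSMUSG00000050138, chr17:87745801-87797994) ran from 10.8 CPM in SNI-DMI 3 to 18.7 CPM in Sham-Saline 4, and its log2 fold changes lay between -0.14 and -0.03 (SE 0.14). Kcnk13 (ENSMUSG00000045404, chr12:99964499-100062682) ran from 13.6 to 19.1 CPM, with log2 fold changes of -0.11 to 0.01 (SE 0.10). Its highest values, 19.1 and 18.6 CPM, were in Sham-Saline 1 and SNI-DMI 2, both among the 3 libraries with the highest skeletal muscle markers, while SNI-Saline 2 had 15.6 CPM. The muscle markers had r = 0.60 with Kcnk13, those of itch neurons 0.79, those of nonpeptidergic nociceptors 0.61, those of Schwann cells -0.63 and those of fibroblasts -0.64. Large myelinated neuron markers had r = -0.62 with Kcnk12. The part of these cells in the values of either gene was not tested. Mmp17 (r = 0.89), Mex3d (0.85) and Galnt17 (0.83) were most like Kcnk12. Bbs9, a gene of the ciliary BBSome (0.89), Zfp112 (0.85) and Ccdc68 (0.83) were most like Kcnk13.

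**Figure D4:**
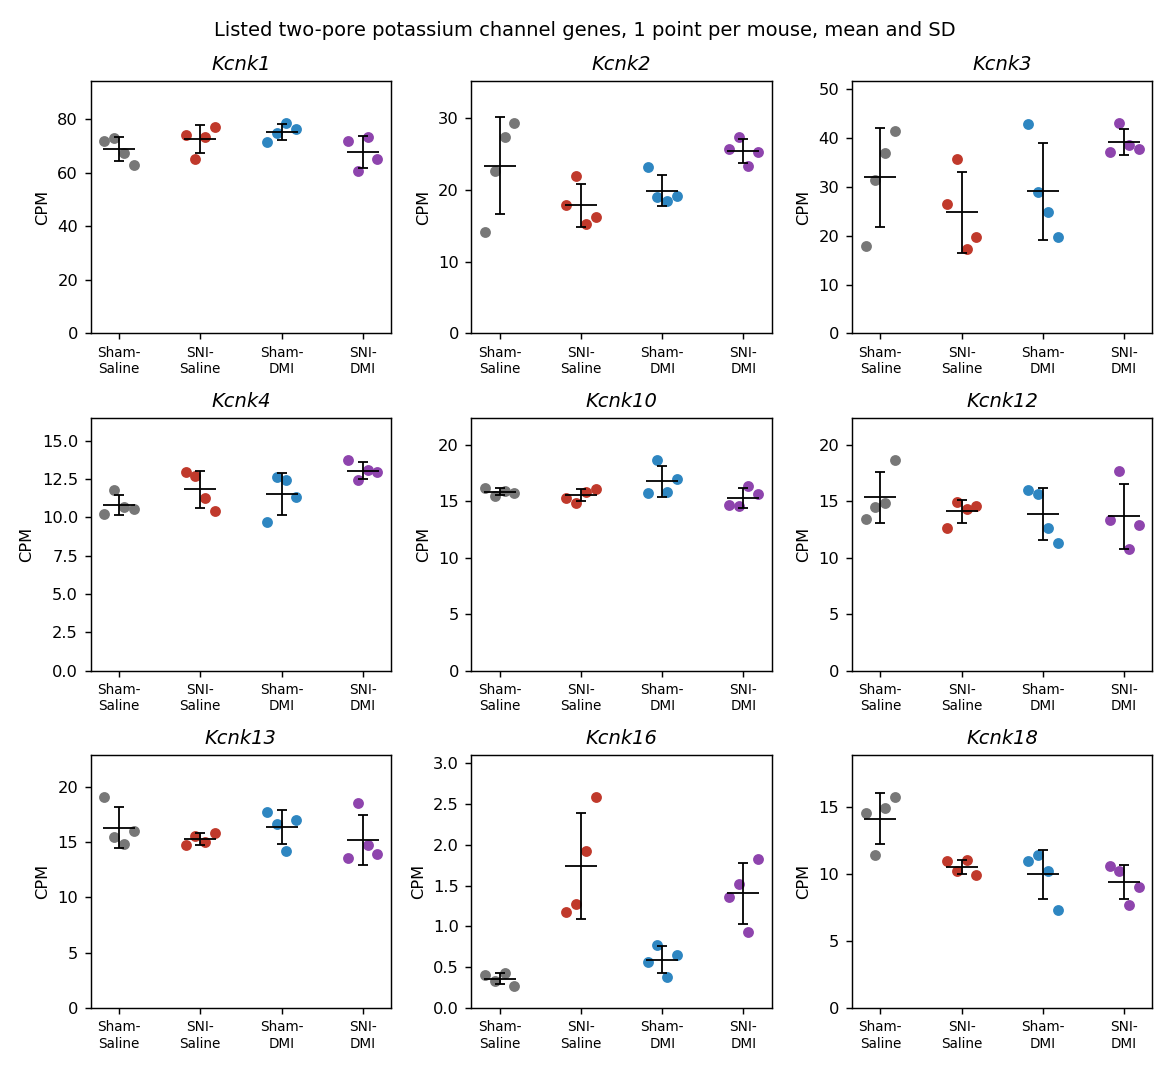
CPM of the 9 genes by group, 1 point per mouse in replicate order, with the mean (long bar) and SD (whiskers); each axis starts at 0 and has its own scale. Kcnk16 is higher in SNI than in sham mice under each treatment, Kcnk18 is highest in Sham-Saline, and Kcnk3 spreads widely in all groups but SNI-DMI.

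Across all genes, 2571 of 21371 passed the edgeR test at an adjusted p under 0.1 for SNI-Saline versus Sham-Saline (12.0%), and among the 9 genes Kcnk16 was called higher and Kcnk18 lower. The groups did not overlap in 15.4% of all genes in this comparison, and among the 9 in the same 2. For Sham-DMI versus Sham-Saline the share called was 23.4%, and Kcnk16 was called higher and Kcnk18 lower. The groups did not overlap in 17.1% of all genes there, and overlapped for each of the 9. For SNI-DMI versus SNI-Saline it was 2.93%, with none of the 9 called. There the groups did not overlap for Kcnk2 and Kcnk3, beside 13.3% of all genes. For SNI-DMI versus Sham-DMI it was 0.402%, with Kcnk16 called higher, and the groups did not overlap for Kcnk2 and Kcnk16 beside 5.04% of all genes. The median log2 fold change over the 9 genes was -0.09, 0.01, -0.02 and -0.03 in these 4 comparisons in the order given, beside -0.001, -0.021, -0.005 and 0.001 over all genes. The study's own criterion was a nominal p under 0.05 with a log2 fold change of 0.32 or more in size, from DESeq2. Applied here to the edgeR values, it called 3 of the 9 for SNI-Saline versus Sham-Saline (Kcnk16 higher, Kcnk2 and Kcnk18 lower), beside 7.15% of all genes. Kcnk2 and Kcnk3 were called higher for SNI-DMI versus SNI-Saline, beside 5.73% of all genes. For Sham-DMI versus Sham-Saline it called Kcnk16 higher and Kcnk18 lower, beside 11.5%, and for SNI-DMI versus Sham-DMI it called Kcnk2 and Kcnk16 higher, beside 5.41%. Because the genes were chosen with these values in view, nothing is read from the counts or from the calls of single Kcnk genes.

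The Kcnk18 call for SNI-Saline versus Sham-Saline was lost without Sham-Saline 1, 3 or 4 or SNI-Saline 1, 2 or 4, with values from -0.51 to -0.36. Its call for Sham-DMI versus Sham-Saline was kept in all 16 such fits. The Kcnk16 call for SNI-Saline versus Sham-Saline was likewise kept in all 16, and DESeq2 gave no adjusted p for it. Its call for Sham-DMI versus Sham-Saline was kept only without SNI-Saline 1, 2 or 4, Sham-DMI 3 or SNI-DMI 3 or 4, with values from 0.62 to 0.92. That for SNI-DMI versus Sham-DMI was kept only without Sham-Saline 1, SNI-Saline 1, 2 or 4, Sham-DMI 1 or SNI-DMI 3, with values from 1.06 to 1.39. With GC content and length trends removed, both of these calls were lost (0.67 and 1.15), and the first of them also without a filter (0.77) and with the Hox covariate (0.56). For SNI-DMI versus SNI-Saline, Kcnk2 was called without Sham-Saline 1, SNI-Saline 2 or Sham-DMI 1, without a filter and by DESeq2, and Kcnk3 without SNI-Saline 2 or Sham-DMI 1 and without a filter. Kcnk2 was also called lower for SNI-Saline versus Sham-Saline by DESeq2 (-0.39) and without Sham-Saline 1 (-0.56), and for Sham-DMI versus Sham-Saline without that library (-0.39). Kcnk10 was called higher for Sham-DMI versus Sham-Saline with the trends removed (0.17). These calls only describe how the fits depend on libraries and settings, since the genes were chosen with their values in view.

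**Figure D5:**
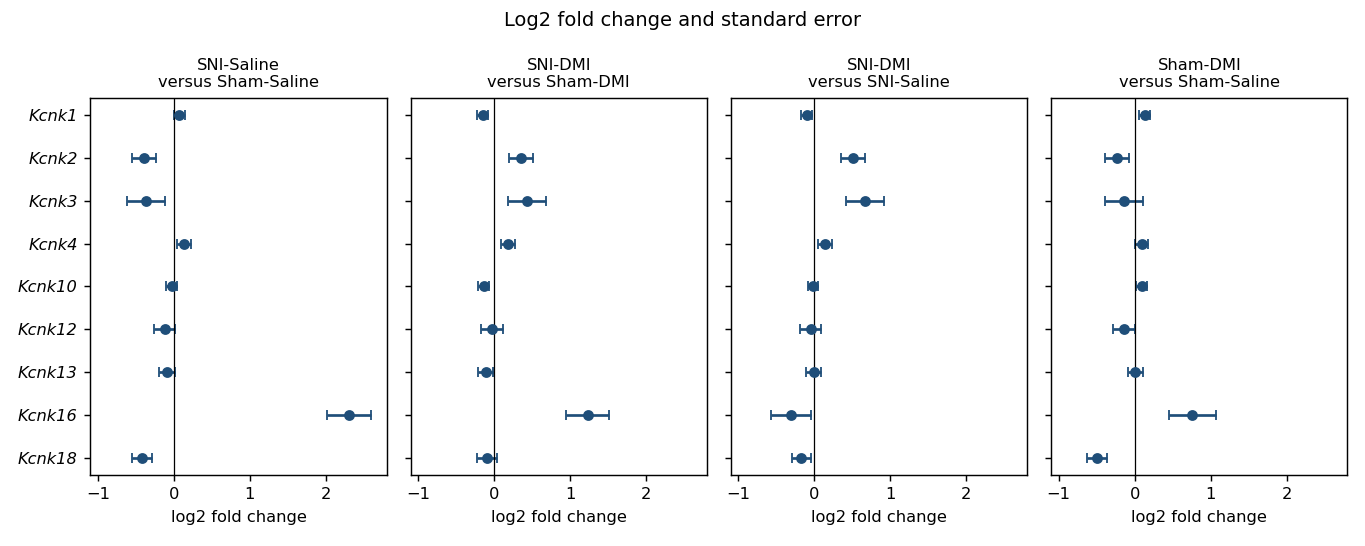
Log2 fold change (point) and standard error (bar) of the 9 genes in the 4 comparisons, from 1 edgeR fit over 16 mice. Kcnk16 lies to the right of 0 for both SNI comparisons, Kcnk2 and Kcnk3 to the right for SNI-DMI versus SNI-Saline, and Kcnk18 to the left for SNI-Saline and for Sham-DMI.

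No gene of the 21371 passed an adjusted p under 0.1 in edgeR for the difference between the DMI effects under SNI and under sham, while 1692 had a nominal p under 0.05 (7.92%) and DESeq2 called 16 (0.0749%). The study's criterion called 3.45% of all genes here, and of the 9 it called Kcnk2 and Kcnk3 higher and Kcnk16 lower. The estimates were 0.74 ± 0.23 for Kcnk2 and 0.79 ± 0.35 for Kcnk3 on the log2 scale. They depended on the setting. Over the alternative settings they ran from 0.31 to 0.74 for Kcnk2 and from 0.04 to 0.85 for Kcnk3.

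Proteins that bind, move or regulate these channels were followed with a list of 32 genes, all tested. For SNI-Saline versus Sham-Saline 6 were called by edgeR (2 higher, 4 lower; 18.8% of the list beside 12.0% of all genes), with a list median log2 fold change of -0.05. Gnaq, the G protein subunit through which receptors close TREK and TASK channels, fell by 0.30 ± 0.07 on the log2 scale (adjusted p = 0.0205, edgeR), from 441 ± 37.5 to 359 ± 15.0 CPM (SD, n = 4). Ppp3cb, a catalytic subunit of calcineurin, the phosphatase that activates TRESK, fell by 0.21 ± 0.06 (edgeR adjusted p = 0.0392), from 170 ± 8.06 to 148 ± 6.75 CPM. Prkce, a protein kinase C, fell by 0.24 ± 0.07 (edgeR adjusted p = 0.0555) and Bves, a TREK-1 partner, by 0.25 ± 0.08 (edgeR adjusted p = 0.0698). S100a10, which binds TASK-1 and helps bring it to the surface, rose by 0.19 ± 0.06 (edgeR adjusted p = 0.0679), and Stx8, a syntaxin that acts on TASK-1 endocytosis, by 0.21 ± 0.07 (edgeR adjusted p = 0.0870). The count fell to 1 without Sham-Saline 1, 3 or 4 or SNI-Saline 1, and to 2 without SNI-Saline 2. With GC content and length trends removed it was 2, both lower.

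For Sham-DMI versus Sham-Saline 12 of the 32 were called (4 higher, 8 lower), 37.5% beside 23.4% of all genes, with a median of -0.05. Ppp3cb fell by 0.27 ± 0.06 (edgeR adjusted p = 0.00520), to 142 ± 9.04 CPM in Sham-DMI, and the calcineurin regulatory subunit Ppp3r1 by 0.18 ± 0.06 (edgeR adjusted p = 0.0339). Gnaq fell by 0.21 ± 0.07 (edgeR adjusted p = 0.0384), Plcb4, a phospholipase C downstream of it, by 0.21 ± 0.08 (edgeR adjusted p = 0.0643) and Sort1, the sortilin sorting receptor, by 0.20 ± 0.07 (edgeR adjusted p = 0.0542). S100a10 rose by 0.29 ± 0.06 (edgeR adjusted p = 0.00559), Stx8 by 0.31 ± 0.07 (edgeR adjusted p = 0.00841), and Ywhag, a 14-3-3 protein of a family that binds TASK channels, by 0.16 ± 0.06 (edgeR adjusted p = 0.0543). The count was 5 without Sham-Saline 3 and 6 without Sham-Saline 1, Sham-DMI 1 or Sham-DMI 4. With GC content and length trends removed, 8 were called and the split was 6 higher and 2 lower.

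None of the 32 was called by edgeR for SNI-DMI versus SNI-Saline, beside 2.93% of all genes. There 11 of the 32 (34.4%) had a nominal p under 0.05, beside 18.5% of all genes, and DESeq2 called 3, beside 8.88% of all genes. For SNI-DMI versus Sham-DMI edgeR called 0, with 2 of the 32 (6.25%) at a nominal p under 0.05 beside 12.1% of all genes, and DESeq2 called 0, beside 2.42%. For the difference between the DMI effects edgeR and DESeq2 each called 0, with 2 of the 32 at a nominal p under 0.05 beside 7.92% of all genes.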

How the data were processed

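The authors made stranded mRNA libraries from the DRGs of 16 mice (1 mouse per library), aligned the read pairs to mm10 and counted them per gene; the submitters' processing notes name HISAT2, HTSeq and DESeq2, and the use of strand in counting is not given in the sources used here. The deposited values are raw whole-number counts of 52636 genes. Each table closes with 5 lines of unassigned reads, which were left out (18.8% to 20.4% of read pairs). Symbols and positions come from GENCODE M21 (GRCm38), and promoters from RefSeq.

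The main test was run with edgeR 4.0.16 (R 4.3.3): filterByExpr (21371 genes), TMM scaling, and glmQLFit with 1 coefficient per group over all 16 libraries. Calls are adjusted p-values (Benjamini-Hochberg over all genes tested) under 0.1. CPM are counts scaled to the TMM-adjusted library total, and correlations use log2 CPM with a prior count of 2. The 9 genes and all lists were chosen with earlier results of these data known, and the posterior Hox genes after the data had been seen. All 9 genes are named, with the 3 protein-coding genes most correlated with each among those of at least 1 CPM on average, and up to 8 called genes per comparison of the partner list. One gene that this rule selects is not reported here. The 15 marker lists were summed per library, and those with r of at least 0.6 in size with one of the 9 genes are given, a limit chosen after seeing the data. Alternatives used limma 3.58.1, DESeq2 1.42.0 and mgcv 1.9.3, and figures python 3.11.15 and matplotlib 3.10.9. Replicates are separate mice, and between mice of a group counts differed by more than sampling noise.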

Additional observations from a re-analysis of the deposited data

Results flagged for a closer look

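In 104 groups of 4 mice (the 13 Kcnk genes that passed the filter and the 13 partner genes called in a comparison, in each of 4 groups), a mouse far from the other 3 was looked for with Dixon's test, and chance alone gives such a mouse in about 5% of groups. It was found in 3 groups. Kcnk2 in Sham-DMI was 23.11 CPM in replicate 1, and the next mouse had 19.11 CPM. Kcnk9, the acid-sensitive TASK-3 channel gene, was 0.1649 CPM in SNI-DMI replicate 3, on 10 reads, and the next mouse had 0.5402 CPM. Plcb1, a phospholipase C, was 47.73 CPM in Sham-Saline replicate 4, and the next mouse had 53.15 CPM.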

How the results depend on the processing

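The study applied its own criterion (a nominal p under 0.05 with a log2 fold change of 0.32 or more in size) to DESeq2 results. Applied here to the edgeR values, it called 1528 genes for SNI-Saline versus Sham-Saline, 1224 for SNI-DMI versus SNI-Saline, 2457 for Sham-DMI versus Sham-Saline, 1156 for SNI-DMI versus Sham-DMI and 738 for the difference between the DMI effects. These are therefore not the study's own counts. At an adjusted p under 0.1, removing GC content and length trends brought the count from 2571 to 1295 for SNI-Saline versus Sham-Saline, from 626 (282 higher, 344 lower) to 77 (52 higher, 25 lower) for SNI-DMI versus SNI-Saline and from 5010 (2475 higher, 2535 lower) to 3199 (1979 higher, 1220 lower) for Sham-DMI versus Sham-Saline. The partner genes of the last went from 4 higher and 8 lower to 6 higher and 2 lower. DESeq2 called 1898 genes for SNI-DMI versus SNI-Saline, 517 for SNI-DMI versus Sham-DMI and 16 for the difference. The 8 libraries of a contrast alone gave 1812 and 9 in the first 2 of these, no filter gave 310 for SNI-DMI versus Sham-DMI, and the posterior Hox covariate, chosen after seeing the data, gave 1 and 47. Partner genes called numbered 0 for SNI-Saline versus Sham-Saline, 1 for SNI-DMI versus SNI-Saline and 1 for Sham-DMI versus Sham-Saline by the study's criterion. They numbered 2 for SNI-Saline versus Sham-Saline and 1 for SNI-DMI versus SNI-Saline with the trends removed, 10, 2 and 4 from 8 libraries, and 3 by DESeq2 for SNI-DMI versus SNI-Saline. The cause was not tested. In each comparison where the main fit called a Kcnk gene, its log2 fold change kept its sign under every alternative run.

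Leaving out 1 library at a time gave 682 (without Sham-Saline 3) to 3286 genes for SNI-Saline versus Sham-Saline, 0 (without SNI-Saline 1 or 3, or SNI-DMI 1, 2 or 3) to 1842 (without Sham-DMI 1) for SNI-DMI versus SNI-Saline, 3286 (without Sham-Saline 3) to 6094 for Sham-DMI versus Sham-Saline, 17 (without SNI-DMI 4) to 850 (without Sham-DMI 1) for SNI-DMI versus Sham-DMI, and 0 to 1 for the difference. Partner counts ran from 1 to 9, 0 to 2, 5 to 13, 0 to 1 and 0 to 0. Of 1035 log2 fold changes of the 9 genes over all settings, 40 had the other sign, none of them where the value was above 0.43 in size. Kcnk3 for SNI-DMI versus Sham-DMI was -0.06 with the Hox covariate. DESeq2 gave no adjusted p for Kcnk16 in SNI-Saline versus Sham-Saline. Its 15 to 169 reads per library limit its precision.

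With the replicate number as a block, 172 genes were called for SNI-DMI versus SNI-Saline and 2106 for SNI-Saline versus Sham-Saline. The Kcnk16 value was then 0.73 for Sham-DMI versus Sham-Saline and 1.22 for SNI-DMI versus Sham-DMI, neither called. The deviations of same-numbered mice from their group means had a median r of 7.43e-06 (-0.08 to 0.18 over 24 pairs, 5 above 0.1). For differently numbered mice the median r was 0.0014 (-0.25 to 0.17 over 72 pairs, 7 above 0.1). The numbers were not taken to pair the mice.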
